A study of Mus musculus with 125 samples.

Results

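Endothelial cells of the mouse lung were profiled at 2 ages by ATAC-seq, an assay in which a transposase cuts open chromatin and the cut fragments are sequenced. The comparison described here is that of the open chromatin of adult lung endothelium with that of P6 lung endothelium, in the peak lists of 4 of the 66 ATAC-seq libraries of the series. Both adult lists (Adult 1 and Adult 2) and both P6 lists (P6 1 and P6 2) were reduced to their 19464 best peaks by −log10 of the q-value, which is the length of the shortest list. Overlapping peaks were merged into 28485 regions. A region is called gained if it had a peak in both adult libraries and in neither P6 library, lost if it had a peak in both P6 libraries and in neither adult library, and shared if all 4 libraries had a peak. By this rule 1820 regions were gained (6.39% of all regions) and 3016 were lost (10.6%). Another 12144 were shared and 11505 were discordant, meaning that the libraries of an age differed.

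The study set out to profile endothelium across organs and ages of the mouse. In the groups used here, adult mice were 2 months old and received tamoxifen (0.015 mg per kg) 7 days before the lungs were taken. The young mice, labelled P6, received the same dose in the first postnatal days, and the protocol text places their collection on postnatal day 7. Tamoxifen switched on GFP in the vessels of all mice. The strain, the driver of the recombinase and the step that separates the GFP-bearing nuclei are not given in the sources used here, nor is the number of animals per library. p-values therefore measure only the spread between libraries, which may be technical. Nuclei of whole lung, called input, were profiled beside the endothelial nuclei, in 2 adult and 3 P6 ATAC-seq libraries.

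The lung vasculature of the newborn mouse is still growing, because the airspaces are divided into alveoli after birth while the capillary network thins to a single layer. Lung capillaries hold a pair of specialised endothelial types. Aerocytes, marked by Car4 and Ednrb, spread over the gas exchange surface, and general capillary cells, marked by Gpihbp1 and Aplnr, act as progenitors and control vessel tone. Open chromatin at gene starts marks promoters that can be used, whereas open chromatin far from starts often marks enhancers, which differ more between cell states than promoters do.

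The libraries did not stand at one level of signal. Adult 2 had the most tags (45.4 M, M for mega, against 24.9 M in Adult 1, 25.6 M in P6 1 and 24.9 M in P6 2) and the fewest peaks (19464 against 30974, 65908 and 60630). The last peak kept had a −log10 q of 4.11 in Adult 1, 1.02 in Adult 2, 13.4 in P6 1 and 12 in P6 2. Fold here is the authors' pileup of a peak over the local background of its own library. Its median over the peaks kept was 4.83 in Adult 1, 3.31 in Adult 2, 6.05 in P6 1 and 6.08 in P6 2, so both adult libraries lay below both P6 libraries. Of the regions in either adult library 65.4% were in both, against 79.8% at P6. The Jaccard index, the shared length over the covered length, was 0.568 between the adult libraries, 0.74 between the P6 libraries and 0.421 to 0.524 over the 4 pairs of unlike age. The mean index was 0.183 higher within ages than between them (exact permutation test over the 3 ways to pair 4 libraries, one-sided p = 0.333, the smallest p this design allows). The peaks kept were equal in number but not in length. They covered 10.8 Mb in Adult 1, 9.56 Mb in Adult 2, 14.9 Mb in P6 1 and 14.2 Mb in P6 2. Their median length was 511, 428, 715 and 685 bp in the same order. Unequal covered length caps the index, and it differed more between ages than within them. Its part in the 0.183 was not tested. The lists hold no counts per region, and a permutation of 2 libraries against 2 cannot reach a p of 0.05, so no region was tested. Gained and lost are descriptions of these 4 lists. What part depth, library quality or age had in the lower signal of the adult libraries cannot be told apart.

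The labelled cell type was checked at its marker genes. Among the best 19464 peaks of each library, one lay within 1 kb of the start of 15, 15, 13 and 13 of 18 general endothelial genes in Adult 1, Adult 2, P6 1 and P6 2, and of 4 to 7 in the 5 whole-lung input libraries. The same count was 1 of 12 for leukocyte genes and 1 of 12 for fibroblast and mural genes in each of the 4 endothelial libraries, and 2, 3, 3 and 2 of 12 for alveolar epithelial genes. In the full lists, which differ in length, the general endothelial count was 17, 15, 18 and 18, and input reached 11 to 18, so there the count does not separate the preparations. The full lists gave 3, 1, 8 and 6 of 12 for fibroblast and mural genes, and the count over all 21887 protein-coding genes moved with them, from 11314 and 9792 at adult to 13083 and 12862 at P6. For leukocyte genes they gave 3, 1, 1 and 1 of 12. Spi1 had a start peak in all 4 full lists and Mrc1 and Lyz2 in that of Adult 1, and the other 9 genes, Ptprc and Cd3e among them, had none.

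Promoters of 7 genes taken up below are shown here because each lay under a gained or a lost region. They are the 250 bases before the start on the gene's strand, from RefSeq on GRCm38.p6 (the patched form of mm10), in lower case with each motif match in capitals. Per1, Icam1, Irf7 and Vegfa lay under gained regions, and Esm1, Igf2 and Foxp1 under lost ones.
Per1: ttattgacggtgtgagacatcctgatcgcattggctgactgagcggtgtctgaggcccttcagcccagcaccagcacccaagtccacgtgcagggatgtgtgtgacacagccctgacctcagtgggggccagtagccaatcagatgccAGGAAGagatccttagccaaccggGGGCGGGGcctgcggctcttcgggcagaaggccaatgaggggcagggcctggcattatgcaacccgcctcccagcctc
Icam1: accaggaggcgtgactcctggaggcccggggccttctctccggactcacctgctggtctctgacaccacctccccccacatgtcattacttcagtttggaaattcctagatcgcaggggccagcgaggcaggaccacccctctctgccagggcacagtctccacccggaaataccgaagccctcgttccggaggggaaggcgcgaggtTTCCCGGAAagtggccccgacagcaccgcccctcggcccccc
Irf7: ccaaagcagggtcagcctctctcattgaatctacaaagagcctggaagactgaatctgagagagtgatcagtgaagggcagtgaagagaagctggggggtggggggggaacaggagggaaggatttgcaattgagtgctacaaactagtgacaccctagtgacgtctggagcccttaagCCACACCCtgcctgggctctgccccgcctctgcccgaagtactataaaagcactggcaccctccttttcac
Vegfa: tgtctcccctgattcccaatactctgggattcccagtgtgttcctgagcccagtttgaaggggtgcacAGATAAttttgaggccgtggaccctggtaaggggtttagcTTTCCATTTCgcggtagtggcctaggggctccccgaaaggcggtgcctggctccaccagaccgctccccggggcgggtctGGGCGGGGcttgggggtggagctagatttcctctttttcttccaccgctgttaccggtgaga
Esm1: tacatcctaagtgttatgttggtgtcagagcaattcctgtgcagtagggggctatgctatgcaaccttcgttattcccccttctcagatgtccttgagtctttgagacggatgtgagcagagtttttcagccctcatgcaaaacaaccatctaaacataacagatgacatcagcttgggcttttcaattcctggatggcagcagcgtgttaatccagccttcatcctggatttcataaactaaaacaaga
Igf2: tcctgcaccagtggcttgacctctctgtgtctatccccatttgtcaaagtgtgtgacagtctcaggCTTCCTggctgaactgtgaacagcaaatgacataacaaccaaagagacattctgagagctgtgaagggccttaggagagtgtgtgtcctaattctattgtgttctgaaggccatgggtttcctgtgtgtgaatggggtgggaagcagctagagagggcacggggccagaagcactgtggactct
Foxp1: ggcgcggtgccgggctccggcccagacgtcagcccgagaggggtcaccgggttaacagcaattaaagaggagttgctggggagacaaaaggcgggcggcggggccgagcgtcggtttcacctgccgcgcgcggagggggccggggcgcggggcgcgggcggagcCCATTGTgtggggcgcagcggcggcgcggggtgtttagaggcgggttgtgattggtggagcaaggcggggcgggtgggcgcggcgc
The capitals mark an ETS motif (AGGAAG) and a KLF/SP motif (GGGCGGGG) in Per1, a STAT motif (TTCCNGGAA) in Icam1 and a KLF motif (GGGTGTGG) in Irf7. In Vegfa they mark a GATA motif (AGATAA), an IRF motif (the site of interferon regulatory factors) and a KLF/SP motif. Igf2 holds an ETS motif and Foxp1 a SOX motif (ACAATGG), and no searched motif was found in Esm1. Motifs were searched on both strands.

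Lost regions lay farther from gene starts than gained regions, of which 973 of 1820 also lay away from starts. Only 159 lost regions (5.27%) lay within 1 kb of the start of a protein-coding gene, against 847 gained regions (46.5%), 6937 shared regions (57.1%) and 35.2% of all regions. The median distance to the nearest start was 39.7 kb for lost, 2.42 kb for gained and 0.296 kb for shared regions. The 17 gained regions with no P6 peak of any rank were more like the lost ones in position, with 1 at a start (5.88%) and a median of 34.7 kb. Between genes lay 50.5% of lost and 26.7% of gained regions, and elsewhere inside genes 44.2% and 26.8%. The share of start peaks in the lists themselves moved the same way: 47.7% and 46.7% of the peaks kept lay at starts in the adult libraries, and 40.1% and 41.0% in the P6 libraries.

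**Figure D1:**
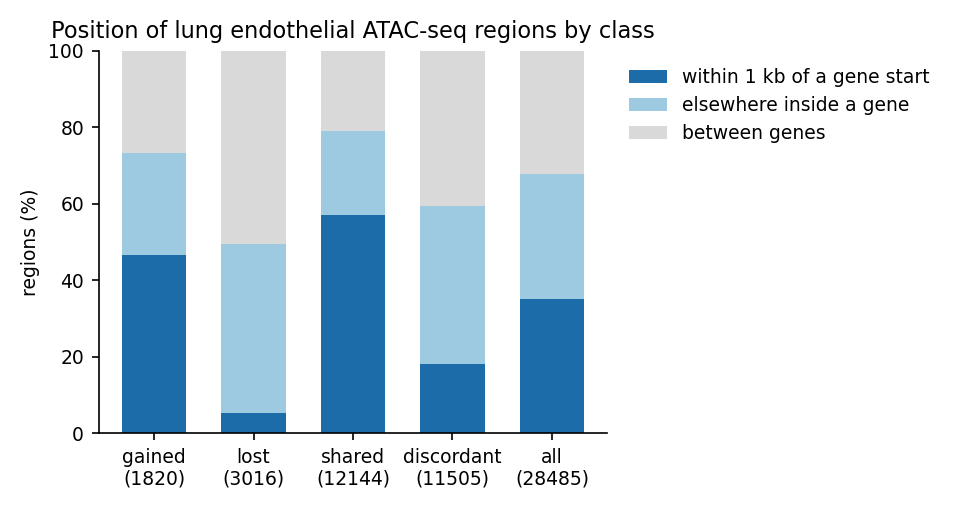
Share of regions (%) within 1 kb of a gene start, elsewhere inside a gene or between genes, for each class, with the number of regions under each bar. Lost regions have 5.27% at starts, against 46.5% of gained and 57.1% of shared regions.

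The full lists hold peaks of any rank. Of the 3016 lost regions 1791 (6.29% of all regions) had no adult peak of any rank. The remaining 1225 had a peak in Adult 1, and since the list of Adult 2 ends at the limit used, that library could add none. Of the 1820 gained regions 17 (0.0597% of all regions) had no P6 peak of any rank, and 1772 had a peak in both full P6 lists. Their best P6 rank had a median of 24100, and for 1386 (76.2%) it was within 29196, 1.5 times the limit. The full P6 lists are longer than the full adult lists, which by itself makes a P6 peak of any rank easier to find than an adult one, so 17 and 1791 are not a like comparison. Gained here means a higher place in the adult order of peaks than in the P6 order. The median fold at gained regions was 4.2 in Adult 1 and 3.03 in Adult 2, against 4.1 in P6 1 and 4.13 in P6 2. At lost regions it was 6.59 in P6 1 and 6.47 in P6 2, and 3.43 in Adult 1 where that library had a peak. These fold values are tied to the rule and to the overall level of each library, and nothing is read from them.

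**Figure D2:**
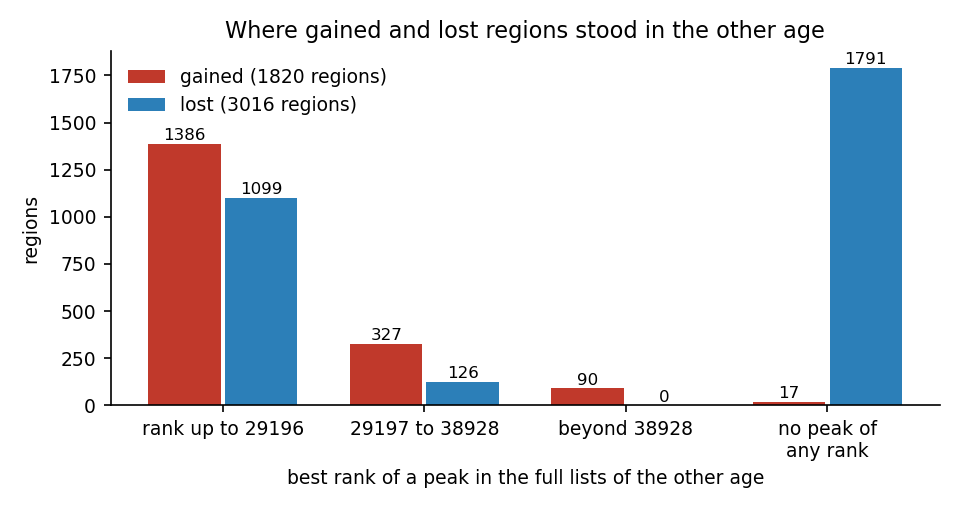
Number of gained and lost regions by the best rank of an overlapping peak in the full lists of the other age. Most gained regions (1386 of 1820) had a P6 peak ranked within 29196, and most lost regions (1791 of 3016) had no adult peak of any rank.

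With a stricter limit on the own age, 136 gained and 639 lost regions had a rank within 10000 in both libraries of their age. Leaving out Adult 2 gave 3940 gained and 3771 lost regions, and leaving out Adult 1 gave 4777 and 4350, since 1 library is then enough to be counted.

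The lost regions with the best P6 ranks and no adult peak lay mostly far from genes. The first was chr2:103343598-103344222, between genes and 40.6 kb from the start of Ehf, an ETS factor known from epithelia, with rank 236 and fold 9.52 in P6 1 and rank 184 and fold 9.93 in P6 2. The second, chr12:38843710-38844405, lay inside Etv1, another ETS factor, with ranks 433 and 763 in P6 1 and P6 2. Next by gene came regions 88.8 kb from Etaa1, 33.7 kb from Ehd3, which acts in endosomal recycling, and 59.0 kb from Fzd10, a Wnt receptor. The region of Fam71f1, chr6:29318783-29319371, was the only one of the first 12 at a gene start. Of these 12 regions 6 had no protein-coding start within 100 kb, one of them 721.0 kb away from the nearest. Both P6 libraries placed all 12 among their best 2190 peaks.

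Among genes, those with the most lost regions were Palld, an actin-binding protein, Foxp1, a forkhead factor, and Frmd4a with 5 each. Fzd10, Fgfr2, Lipc, Tgfb2 and Elmo1 had 4 each. Cdh5, which encodes VE-cadherin of the endothelial junction, was nearest to 3 lost regions with no adult peak, at 62.0, 58.9 and 4.78 kb from its start. The region at 4.78 kb, chr8:104096647-104097014, ranked 7291 in P6 1 and 9105 in P6 2 with folds of 2.78 and 2.72. A start peak at Cdh5 was present in all 4 libraries.

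Of the gained regions without a P6 peak, the 12 best-ranked were looked up. The first, chr5:5944750-5945326, lay 196.0 kb from the nearest protein-coding start and ranked 5686 in Adult 1 and 41 in Adult 2, with folds of 6.37 and 7.64. The ranks of the adult libraries thus differed widely there. Others lay 34.7 kb from Zfp746, 94.6 kb from Scaf8 and inside Mamdc2, Syne1, Snx10, Litaf, Ankrd33b and Arl15. Cd74, the invariant chain that guides MHC class II molecules, was the one gene with such a region at its start, 0.188 kb away (rank 16175 and fold 4.07 in Adult 1, rank 9554 and fold 3.35 in Adult 2). Cd74 is on chromosome 18. By number of gained regions of any kind, Gm40035, Ece1, Shroom3 and Nfib led with 4 each. Ece1 encodes the enzyme that makes active endothelin, and Nfib is a nuclear factor needed for lung maturation.

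Gene groups were then read through 23 lists. Of all 21887 protein-coding genes 7.02% were nearest to a gained region and 8.52% to a lost one, and of the 12520 genes with any merged region these shares were 12.3% and 14.9%. Counting only regions away from starts, 3.5% of all genes were nearest to a gained and 7.91% to a lost region. A lost region with no adult peak, at a start or away from one, was nearest to 5.02%. Over regions with a gene within 100 kb, 6.79% were gained and 8.92% lost. List genes are often rich in peaks, so the share of a list's own regions is the fairer measure and is given beside the counts. With no test of a list made here, none is called particular.

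**Figure D3:**
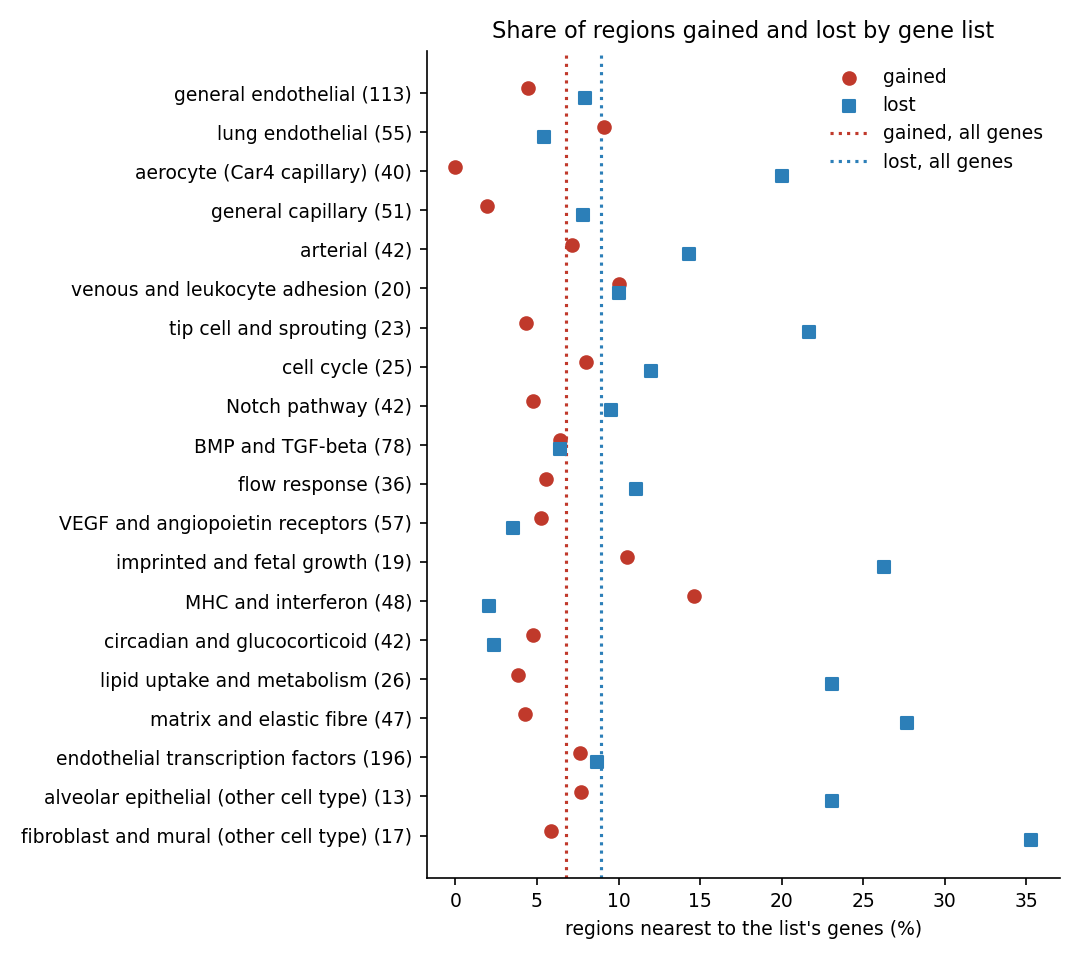
Share (%) of the regions nearest to each list's genes that were gained (circles) or lost (squares), with the number of regions in brackets, for lists with at least 10 regions. Dotted lines give 6.79% gained and 8.92% lost over all genes. For gained, the MHC and interferon list is highest (14.6%), followed by the imprinted (10.5%), venous (10.0%) and lung endothelial (9.09%) lists. For lost, the fibroblast and mural list is highest (35.3%), followed by the matrix (27.7%), imprinted (26.3%), lipid (23.1%), alveolar epithelial (23.1%), sprouting (21.7%) and aerocyte (20.0%) lists. Further lists lie above each line by less.

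Aerocyte genes had lost regions and, with all 4 libraries, no gained ones. Lost regions lay nearest to 5 of 10 members and made up 8 of the list's 40 regions (20.0%), and 3 members had one with no adult peak. Ednrb, the endothelin receptor B of aerocytes, had 3 lost regions at 41.5, 63.2 and 85.8 kb from its start. The nearest, chr14:103884799-103885676, ranked 6068 in P6 1 and 3951 in P6 2 and had a peak of rank 27899 in Adult 1. The second, chr14:103906528-103907185, ranked 8945 and 7499 with folds of 7.59 and 7.96 and had no adult peak. Apln, the apelin ligand, which aerocytes and sprouting tip cells share, had 2 lost regions. The one at chrX:48005946-48006635 ranked 6919 and 12168, and the one at chrX:48042698-48043107 ranked 16767 and 14070, neither with an adult peak. Chst1 (44.5 kb), Kitl (87.7 kb) and Kdr (3.65 kb) had 1 each. Kitl encodes the ligand of Kit and Kdr the main VEGF receptor. The lost Kdr region lay inside the gene, and Adult 1 had a peak there at rank 20382, just past the limit. At the starts of aerocyte genes, the best 19464 peaks of each library gave 4, 3, 4 and 4 of 10 genes in Adult 1, Adult 2, P6 1 and P6 2, against 10080, 9792, 8743 and 8922 of all 21887 genes. With 10000 top peaks per library, 2 of the 10 genes had a lost and 1 a gained region. A gained region lay nearest to 3 genes without Adult 1, to 1 without Adult 2 and to 1 without P6 1, and a lost one to 6 in each case.

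In general capillary genes 2 of 8 had lost regions and 1 a gained one. The gained count was 4 without Adult 1, 3 without Adult 2 and 3 with 10000 top peaks. The lost count was 4 without Adult 2, 4 without P6 2 and 3 without Adult 1 or with 10000 top peaks. Aplnr, the apelin receptor, had 3 lost regions, 2 of them with no adult peak, and 1 gained region. The lost share of the list's 51 regions was 7.84%, below the 8.92% over all genes.

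Matrix genes showed the highest share of lost regions among the endothelial lists. Lost regions lay nearest to 8 of 14 genes of the basement membrane and elastic fibre and made up 13 of their 47 regions (27.7%). For 6 genes at least 1 lost region had no adult peak. Col4a1 and Col4a2, which encode the collagen IV chains and share a promoter region, had 2 lost regions each, and all 4 had no adult peak. Each region was given to the nearer annotated start, so the 2 counted for Col4a1 lie inside Col4a2 and the 2 counted for Col4a2 lie inside Col4a1. Of those given to Col4a1, chr8:11316155-11316535 ranked 8876 in P6 1 and 9110 in P6 2, and chr8:11347602-11348120 ranked 15629 and 12756. Their common start lay in a gained region, chr8:11312440-11312983, with ranks of 13018 in Adult 1, 13422 in Adult 2, 25335 in P6 1 and 30297 in P6 2. Lama4, a laminin chain of the vessel basement membrane, had 3 lost regions, and the strongest (chr10:38915935-38916535) had folds of 8.3 and 8.06 at P6 and 3.35 in Adult 1. Col18a1, the source of endostatin, had one with folds of 8.59 in P6 1 and 7.45 in P6 2 and no adult peak. Hspg2, which encodes perlecan, had one at ranks 4840 and 7583, also with no adult peak. With 10000 top peaks 6 of the 14 genes had a lost region. Of the elastic fibre genes, Fbn1 had 2 lost regions, Fbn2 1, and Eln, which encodes elastin, 1 together with a gained region at its start.

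Fibroblasts and mural cells also express many matrix genes. Lost regions made up 6 of the 17 regions nearest to fibroblast and mural genes (35.3%) and 3 of the 13 nearest to alveolar epithelial genes (23.1%), against 27.7% for the matrix and 20.0% for the aerocyte list. They were at Npnt (3 regions), Myh11, Pdgfra and Tcf21 for the first and at Aqp5, Cdh1 and Sftpd for the second. Gained regions lay nearest to Gli1 of the first list and Hopx of the second. The leukocyte list had only 8 regions and the erythroid list 1, too few to set beside the 8.92% lost over all genes. None of these was lost, and the erythroid one, nearest to Klf1, was gained. The part of other cell types in the lost matrix regions was not tested. In whole-lung input, none of the 13 lost matrix regions had a peak among the best 19464 of either adult library, and 2 of the 13 had one in any of the 3 P6 libraries, at Lama4 and Fbn1. Over all lost regions the share per input library was also low, at 7.1% and 6.66% at adult and 22.1%, 21.9% and 16.6% at P6. With 13 regions, nothing about the matrix list is read from these counts. In the full P6 input lists, which hold 91318 to 112753 peaks, 93.9 to 99.3% of all lost regions had a peak.

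Sprouting genes had lost regions at 3 of 10 members (21.7% of 23 regions), and 1 member, Adm, had a gained one (3 members without Adult 1, 2 without Adult 2 and 2 without P6 1). With 10000 top peaks 1 member had a lost and 2 had a gained region, which turns the direction. Esm1, a proteoglycan of tip cells, had its start in a lost region, chr13:113209352-113209961, whose promoter is printed above. It ranked 9865 in P6 1, 17909 in P6 2 and 30551 in Adult 1 and had no peak in Adult 2. A second Esm1 region 14.5 kb away had no adult peak. Nid2, which encodes the basement membrane protein nidogen, had a lost region of 1101 bp at chr14:19733325-19734425 with ranks of 4287 and 6082.

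Arterial and Notch genes held both classes. Lost regions lay nearest to 5 of 10 arterial genes (14.3% of 42 regions). Sox17, an arterial transcription factor, had 2, of which chr1:4471220-4471721 ranked 4206 in P6 1 and 5860 in P6 2 and had no adult peak. The others were Efnb2, Unc5b, Bmx and Dll4, and all 5 lay away from gene starts. Gja5, which encodes connexin 40, had a gained region 44.0 kb from its start with ranks of 17432, 13015, 33640 and 32166 in Adult 1, Adult 2, P6 1 and P6 2. That region also had a peak in both adult and all 3 P6 input libraries. Among 10 Notch genes, Hes1, Nrarp and Dll4 had lost regions with no adult peak, and Hey1 had 2 gained ones. The lost share was 9.52% of 42 regions, near that of all genes. Genes near gained regions numbered 2 in the arterial list, and 5 without Adult 1 and 4 without Adult 2. In the Notch list they numbered 1, and 5 and 4 without those libraries and 2 without either P6 library. With 10000 top peaks 3 Notch genes were near gained and 1 near lost regions, the reverse of the order above. Over all lists they numbered 46, and 93 without Adult 1 and 73 without Adult 2, where 1 adult library stands for its age.

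Genes of fetal growth had few regions, and 5 of 19 were lost (26.3%). Igf2, the fetal growth factor, had its start in a lost region, chr7:142666657-142667140, with folds of 7.79 in P6 1, 7.61 in P6 2 and 3.43 in Adult 1. Igf2bp3, an RNA-binding protein of fetal cells, had the highest rank of the list, 3032 and 3004, in a region 3.02 kb from its start where Adult 1 had a peak of rank 29344. Hmga2, an architectural protein of growing tissue, had a lost region with ranks of 5458 and 6015 and no adult peak, and Dlk1 and Peg10 had one each. Mest was the exception, with 2 gained regions, 16.6 kb from its start and 66.8 kb away inside Copg2.

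Gained regions lay nearest to 7 of 17 genes of the MHC and interferon list (41.2%) and made up 14.6% of its 48 regions, and 1 region (2.08%) was lost. Of the 7 genes 4 had their gained region away from a start. At H2-Ab1, an MHC class II chain, chr17:34261525-34261865 ranked 14784 in Adult 1, 5887 in Adult 2, 42461 in P6 1 and 53731 in P6 2. Cd74, of the same pathway, had no P6 peak. Psmb8, an immunoproteasome subunit, had a gained region at its start with ranks of 16129, 9228, 21114 and 21885, a narrow step across the limit. Irf7, the interferon regulatory factor whose promoter is printed above, ranked 12572, 12453, 22327 and 19575, with P6 2 just past the limit. The region of Ifit1, an interferon-induced protein, lay 21.4 kb from its start, inside Ifit1bl1. It ranked 10339, 15470, 31125 and 24948. Irf1 (16.2 kb) and the surface protein gene Ly6c1 (1.11 kb) made up the 7, and Irf1 also had the lost region. With 10000 top peaks 1 of the 17 genes had a gained region, so this count depends on peaks of middle rank. With Adult 2 left out it was 9, and with Adult 1 left out 10. In the full lists 17, 17, 16 and 16 of 17 genes had a start peak, and among the best 19464 peaks 16, 17, 13 and 14. Over all 21887 genes the latter count also fell, from 10080 and 9792 at adult to 8743 and 8922 at P6. Of the leukocyte genes, Spi1 had a start peak in all 4 full lists, and Mrc1 and Lyz2 had one in the full list of Adult 1 only. Among the best 19464 peaks only Spi1 had one, in each library. The part of such cells in these regions was not tested. The Cd74 and H2-Ab1 regions also had a peak in both adult input libraries, and in 3 and 1 of the 3 P6 input libraries.

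Other list genes with a gained region at their start were Per1, Icam1, Vegfa, Pecam1, Tal1, Bmpr2, Acvrl1, Bub1, Elk3, Lyve1, Tmem100 and Nfib. Acvrl1 also had a start peak among the peaks kept in P6 1 and in P6 2, and Per1 had one in P6 1. In those libraries the start peak lay outside the gained region, so these starts were not without a P6 peak. The other genes named had no start peak among those kept in either P6 library. The gained region of Per1, a clock gene that also answers to glucocorticoids, ranked 13963, 8363, 32951 and 37072 in Adult 1, Adult 2, P6 1 and P6 2. Icam1, the adhesion molecule that leukocytes bind, ranked 12553, 17385, 39919 and 36861. The folds at Per1 were 2.87, 2.38, 2.34 and 2.28. Pecam1, which encodes the endothelial surface protein CD31, ranked 12457, 10981, 22021 and 20988. Bmpr2, the BMP receptor mutated in heritable pulmonary hypertension, ranked 5082, 9010, 24121 and 26424. The circadian list as a whole had 2 of 14 genes with gained and 1 with lost regions, which is 4.76% and 2.38% of its 42 regions. Genes near gained regions numbered 4 without Adult 1, without Adult 2 or without P6 2, and 3 with 10000 top peaks. Those near lost regions numbered 3 without P6 1 and 2 without P6 2.

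Of the transcription factors of endothelium, 11 of 32 genes were near gained and 11 near lost regions, and 4 of these genes had both. Without Adult 1 the counts were 22 and 17. Gained and lost regions in total also became more numerous at that setting, where 1 library stands for the adult age. Their regions were gained at 7.65% and lost at 8.67% of 196, close to the values over all genes. Nfib had 4 gained regions, one of them at its start. Foxp1 had 5 lost regions and 1 gained region. Its lost start region, chr6:99028130-99028930, ranked 18867 in P6 1, 17628 in P6 2 and 19817 in Adult 1, a narrow step across the limit. This region lay inside Foxp1. Adult 2 had no peak in it but had a Foxp1 start peak elsewhere among the peaks kept, so the gene was not without a start peak there. Klf4, a flow-induced factor, had a lost region 9.12 kb from its start, and Klf2, its relative, a gained one at 46.9 kb, inside Eps15l1. Foxf1, the forkhead factor of lung endothelium, had a gained region 1.21 kb from its start with ranks of 15557, 11608, 22871 and 21986.

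Of the lung endothelial list 4 of 12 genes had gained regions (9.09% of 55) and 3 had lost ones (5.45%). Without Adult 1 the counts were 9 and 5, and without Adult 2 4 and 5. The gained genes were Tmem100, Foxf1, Nostrin and Acvrl1, and the lost ones Tmem100, Tbx3 and Ace. Ace encodes the angiotensin converting enzyme, for which lung endothelium is a main source. BMP and TGF-beta genes were at 6.41% in both directions. Lost regions lay nearest to the receptor genes Tgfbr1, Tgfbr2 and Tgfbr3 (59.1, 43.6 and 18.1 kb), to Bmp4 (85.2 kb) and to Id3 (38.9 kb). Gained ones lay nearest to Tgfbr3 (2 regions, 60.3 and 51.4 kb), Acvrl1, Bmpr2 and Id1. The lost Tgfbr1 region lay inside Col15a1 and had a peak in both adult and all 3 P6 input libraries. Lipid genes had 6 of 26 regions lost (23.1%), 2 each at Slc27a3, Tcf15 and Acsl1. The Slc27a3 region chr3:90376152-90376711 ranked 1828 in P6 1 and 4154 in P6 2. Tcf15, a factor for fatty acid uptake in capillary endothelium, had lost regions with ranks of 6838 and 8104 in P6 1. Cell cycle genes had 3 of 16 members with lost regions (Mki67, Cdk1 and Rrm2) and 2 with gained ones (Bub1 and Aurkb), and lost and gained regions made up 12% and 8% of the 25 regions of the list, against 8.92% and 6.79% over all genes. Among the best 19464 peaks 16, 14, 14 and 14 of the 16 genes had one at their start in Adult 1, Adult 2, P6 1 and P6 2. Of the regions of general endothelial genes 4.42% were gained and 7.96% lost (113 regions; 4 genes had gained ones, and 13 without Adult 1 or 7 without P6 1), of those of flow response genes 5.56% and 11.1% (36), and of those of VEGF and angiopoietin receptor genes 5.26% and 3.51% (57). Venous genes had 2 gained and 2 lost of 20 regions, and lymphatic genes 1 and 1 of 8.

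Libraries that played no part in choosing the regions were asked for a peak at them, with each list cut to the same 19464 peaks. In endothelium of other organs, lost regions were more often open at P6 than at adult. In heart 21.3% and 21.5% of lost regions had a peak in the adult libraries against 42.3% and 41.2% in the P6 libraries. The values were 19% and 23.6% against 40.2% and 33.8% in kidney, and 18.2% and 18.5% against 30.4% and 25.6% in liver. In brain they were 11.6% and 12.7% against 25.8%, 16.5% and 29.1%, and in retina 7.13% and 4.58% against 18.4%, 15.3% and 15.6%. Every P6 library lay above every adult library of its organ, in all 5 organs and in whole-lung input (7.1% and 6.66% at adult, 22.1%, 21.9% and 16.6% at P6). With 2 libraries against 2 or 3, the exact permutation test cannot reach a p of 0.05 in any 1 organ, and none was made. Shared regions had a peak in 62.9 to 86.3% of cases in the same libraries.

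Gained regions mirrored this in heart, and less clearly elsewhere. In heart 60.1% and 57.5% had a peak at adult and 16.7% and 20.3% at P6. In kidney the values were 58.0% and 54.8% against 32.1% and 48.6%, in brain 56.9% and 59.9% against 52.7%, 42.3% and 36.9%, and in retina 54.7% and 52.7% against 44.3%, 48.8% and 47.9%. In liver the ages overlapped, with 48.5% and 42.5% at adult and 31.3% and 49.0% at P6. Signal moved with these shares. The P6 libraries with the highest gained shares within brain, kidney and liver were those with the fewest peaks of their group (27160, 43882 and 47685), and their −log10 q at the limit was the lowest (2.84, 5.75 and 7.67). In whole-lung input the P6 library with the fewest peaks, the third, had a gained share of 49.8%, against 19.9% and 20.1% in the others and 55.3% and 50.2% at adult. Lost shares of the same P6 libraries were the lowest of their group in kidney (33.8%), liver (25.6%) and lung input (16.6%), but not in brain (25.8%). The part of library signal in the gained and the lost regions was not tested.

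**Figure D4:**
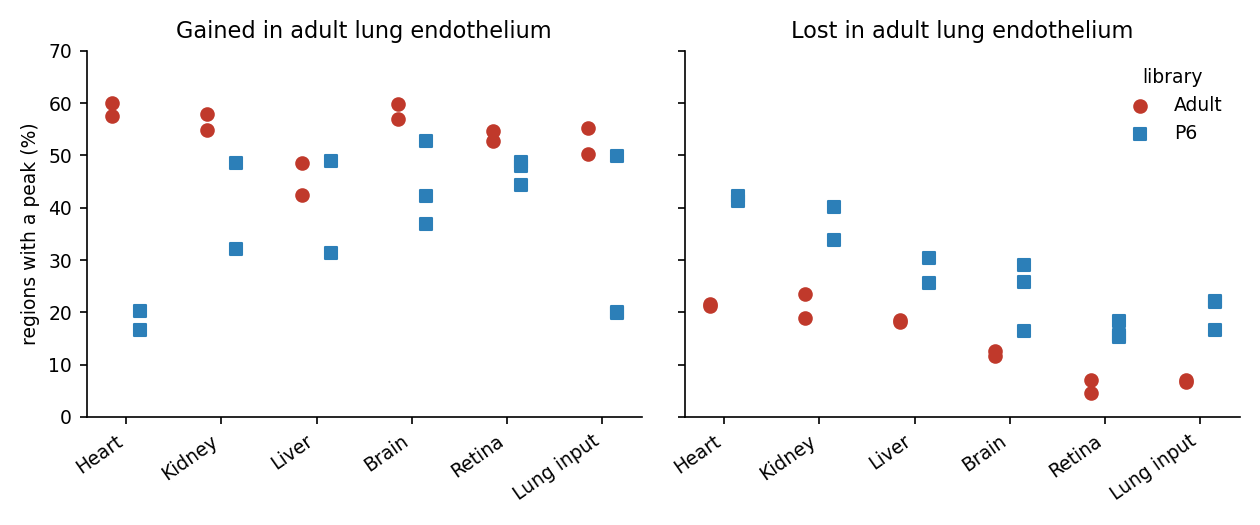
Share (%) of gained (left) and lost (right) regions with a peak among the best 19464 of each library that was not used to choose them, by organ and age, 1 point per library. For lost regions each P6 library lies above the adult libraries of its organ, as in heart with 42.3% and 41.2% against 21.3% and 21.5%. For gained regions the ages overlap in liver.

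Split by position, lost regions kept the P6 libraries above the adult ones in every organ and in lung input, both at starts and away from them. Gained regions at starts overlapped between the ages in kidney (67.8% and 61.7% at adult, 40.1% and 62.5% at P6), in liver (59.3% and 48.6% against 39.0% and 60.4%) and in lung input (66.9% and 67.2% against 26.9%, 27.0% and 68.5%). Away from gene starts, gained regions overlapped between the ages in liver (39.1% and 37.1% against 24.7% and 39.1%) and not in the other organs or in lung input. In heart, lost regions away from starts had a peak in 21.0% and 21.2% of cases at adult and 41.7% and 40.3% at P6, and gained regions in 49.1% and 45.0% against 13.5% and 15.1%. Single genes followed with exceptions. Over the 96 lost regions near list genes, the share of other-organ endothelial libraries with a peak was higher at P6 than at adult for 57, higher at adult for 20 and equal for 19. Over the 55 gained ones it was higher at adult for 34, higher at P6 for 13 and equal for 8. The lost Igf2bp3 region had a peak in 2 of 10 adult and 12 of 12 P6 libraries of other organs. The lost Hspg2 region had one in 6 of 10 and 10 of 12, and the lost Apln region at chrX:48005946-48006635 in 3 of 10 and 8 of 12. By contrast the Esm1 start region had one in 2 of 10 adult and 0 of 12 P6 libraries, and the lost Emcn region at 98.2 kb in 8 of 10 and 3 of 12. The lost Hmga2 region had one in 8 of 10 adult and 9 of 12 P6 libraries, so it was open in most other-organ libraries of both ages. The lost Kitl region, the Ednrb region at 63.2 kb and the gained Foxf1 region had none in either.

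Of 21238 promoter windows, each from 250 bases before to 50 after a start, 766 overlapped gained regions, 118 lost regions and 7298 shared regions. A start was known for 17492 genes, so some genes had more than 1 window. Their median GC content was 62.3% for gained, 58.8% for lost and 62.3% for shared regions and 56.3% over all windows. The ratio of observed to expected CpG was 0.823, 0.544 and 0.816, against 0.567 over all. In base composition, promoters under gained regions resembled those under shared regions, and those under lost regions were poorer in CpG. The IRF motif was in 4.18% of gained, 2.54% of lost, 2.7% of shared and 3.34% of all windows. The cAMP response element (TGACGTCA) was in 6.01%, 2.54%, 3.82% and 2.24%. A SOX motif (ACAAAGG) was in 13.6% of lost windows (16 of 118), against 3.92% of gained, 3.48% of shared and 5.4% of all. The other SOX motif searched, ACAATGG, was in 3.39% of lost windows (4 of 118), 1.04% of gained, 1.75% of shared and 2.92% of all. The ETS motif AGGAAG, contained in 34.4% of all windows, was in 38.1% of lost and 27.9% of gained ones, and the other ETS motif searched, GGAAGT, was in 18.6% of lost, 27.4% of gained, 31.0% of shared and 24.8% of all windows. The STAT, GATA, KLF/SP and KLF motifs named above were in 1.17%, 9.65%, 23.6% and 3.63% of all windows. A match is a string of letters and not a bound site. Regions away from starts, which are most of the lost ones, were not searched, since no genome sequence was used here.

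Nuclear RNA of lung endothelium gave a separate measurement, in 2 adult and 2 P6 libraries. Their totals were 17.2 M and 17.7 M estimated reads at adult and 8.86 M and 10.4 M at P6. The counts are per transcript, and no table used here joins the transcript identifiers to genes, so no transcript can be set beside a region. Of 88796 transcripts tested 82 were higher at adult (0.0923%) and 278 lower (0.313%), together 0.405%. To pass, a transcript needed an adjusted p under 0.05 and a difference of 1 or more on the log2 scale (edgeR's quasi-likelihood test, Benjamini-Hochberg). The share of higher calls was 22.8%, and with relative log expression factors, which moved the log2 fold change of the median transcript by 0.363, it was 38.4%. Leaving out Adult 1, Adult 2, P6 1 or P6 2 left 16, 71, 157 and 115 transcripts that passed. The fit also held a retina input library at P6 with a total of 11421 reads, and without it 693 transcripts passed, 568 of them lower at adult. Of the 360, 359 were among these. The same fit passed 56 transcripts as higher and 463 as lower in lung input, and 0 for the difference between endothelial and input. In simulated counts with 200 changed transcripts, the fit of 53 libraries passed 0% of 8-fold and 70.5% of 64-fold changes. The low number of transcripts that passed therefore does not show that few changed with age.

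The identifier ENSMUST00000010191.12 had 149 and 170 CPM (reads scaled to a common library total) at P6 and 0 in both adult libraries. It was at least 2200-fold lower at adult (edgeR, adjusted p = 0.002). Folds here are taken against a floor of 3 reads in both libraries of an age together, which is 0.0725 CPM at adult and 0.166 CPM at P6. Input held this transcript at both ages, at 10.4 and 2.92 CPM at adult and 45.4 and 96.4 at P6. ENSMUST00000105574.8 had 115 and 203 CPM at P6 and 0 at adult (at least 2190-fold lower, edgeR, adjusted p = 0.0393). Input showed the same for it, with 160 and 222 at P6 and 0 in both adult libraries. In the other direction ENSMUST00000115201.7 had 36.8 and 15.5 CPM at adult and 0 at P6 (at least 157-fold higher, edgeR, adjusted p = 0.0101), and ENSMUST00000231192.1 had 48.7 and 45.3 against 0 (at least 283-fold higher, edgeR, adjusted p = 0.0453). Neither passed in input, where ENSMUST00000115201.7 had 41.1 and 29.1 CPM at adult and 15.1 and 15.4 at P6 (edgeR, adjusted p = 0.829). In input ENSMUST00000231192.1 had 23.5 and 20.2 CPM at adult and 6.27 and 0 at P6 (edgeR, adjusted p = 0.621). Single transcripts at 0 can reflect how reads are divided among transcripts of a gene.

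The same transcripts were looked up in whole lung. Of the 360 that passed in endothelial RNA, 354 had the same sign in input, namely 278 of 278 lower and 76 of 82 higher ones. The share with the same sign over all tested transcripts was not computed, and whole lung also holds endothelial nuclei. Nothing about these transcripts is therefore read from that count. Input libraries on their own passed 34 transcripts as higher and 260 as lower, so 18 of the 82 and 184 of the 278 endothelial calls also passed in input. The difference between the age effects of endothelial and input RNA was tested as an interaction. It passed for 0 of the transcripts by edgeR, with 1979 at an unadjusted p under 0.05. A p that misses the threshold does not show that the age effects were alike. Across the 88796 transcripts, which are not independent replicates, adult endothelial libraries correlated with adult input at 0.856 to 0.903 and with each other at 0.892 on the log2 scale. At P6 these values were 0.84 to 0.882 and 0.889.

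**Figure D5:**
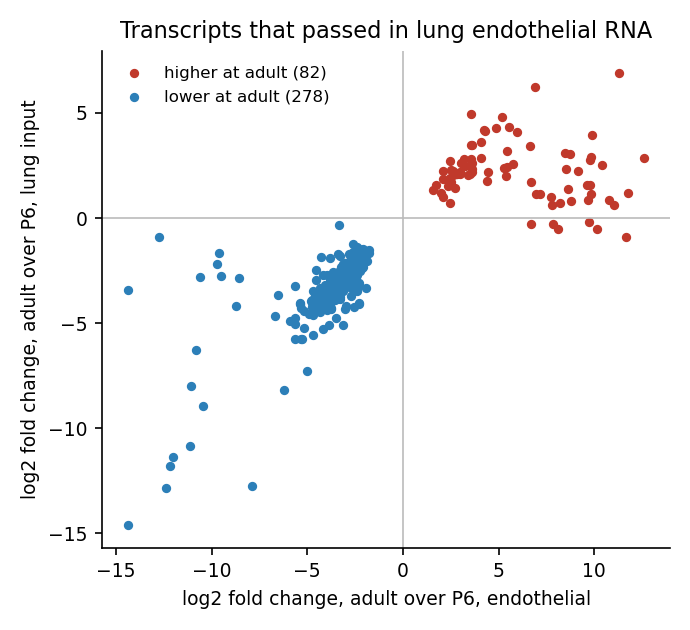
log2 fold change of adult over P6 in lung input (vertical) against lung endothelial RNA (horizontal) for the 360 transcripts that passed in endothelial RNA, 82 higher and 278 lower at adult. Points in the lower left and upper right quadrants, 354 of 360, have the same sign in both. The share over all tested transcripts was not computed.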

How the data were processed

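Lists of open chromatin and of transcripts were taken as deposited. The authors ran MACS 2.1.2 on each library by itself in broad mode without a control, per the file headers. Shift was -100 bp, extension 200 bp, and the q-value limits 0.05 and 0.1. Per the submitters' processing notes, the build was mm10, Bowtie2, SAMtools 1.13 and Picard were used, and Salmon 1.5.1 for RNA. The deposited lists give a pileup signal, the fold as a ratio over local background, and −log10 of the q-value. The deposited RNA tables hold the authors' estimated counts per transcript.

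Peaks were ranked by −log10 q (ties by fold), reduced to 19464 per library and merged at an overlap of 1 bp. The nearest of 21887 protein-coding RefSeq genes (GRCm38.p6) was the one with its start within 100 kb of the region's centre. For 4395 genes, all of chromosome 18 among them, the tables used give no strand, and the nearer gene end stood in for the start. The assignment was tested on simulated peaks. Estimated counts, rounded to whole reads, went into a fit by edgeR 4.0.16 (R 4.3.3) of 53 libraries with TMM factors and filterByExpr, with the dispersion trend taken from every 40th transcript. A heart input pair that differed by less than sampling noise was averaged. A retina input library of 11421 reads stayed in the fit, and an alternative left it out. DESeq2 1.42.0 was an alternative. Replicate numbers did not pair the adult with the P6 lung endothelial RNA libraries. Whether they pair endothelial with input libraries was not checked, and the interaction was fitted without such pairs. The test was planned per gene and made per transcript. Sequence features were planned for regions and computed for promoters.

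Named are the genes nearest to the 12 best-ranked regions per direction that had no peak of any rank in the other age, the genes with most regions, members of the lists near a gained or lost region, and at most 2 transcripts per direction. The members and lists were chosen with earlier results of these data known.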

Additional observations from a re-analysis of the deposited data

How the results depend on the processing

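The 1820 gained and 3016 lost regions became 1398 and 1757 with 10000 top peaks, 3749 and 4693 with ranking by fold, 2384 and 4488 with 50% reciprocal overlap, and 94 and 26275 with all peaks, where lists of unequal length are compared. Added after seeing the data, a rank within 10000 in the own age left 136 and 639, and regions away from starts numbered 973 and 2857. Leaving out 1 library gave 2349 to 4777 gained and 3771 to 4350 lost regions. The 17 gained and 1791 lost regions with no peak of any rank in the other age became 2 and 339 with 10000 top peaks and 23 and 3499 with ranking by fold, and ranged from 26 to 876 and from 1895 to 4350 when 1 library was left out. Without Adult 2 they were 216 and 1895, and without Adult 1 876 and 4350. Leaving out a library lets 1 library stand for its age. The difference of the Jaccard index within and between ages was 0.183, and 0.192, 0.276 and 0.236 with 10000 peaks, all peaks and ranking by fold. List members near a gained region numbered 46, and 70 when any gene within 50 kb was counted; leaving out 1 library gave 57 to 93 near gained and 78 to 90 near lost regions, against 69. Counts of single lists are small, and 23 of 46 moved by more than 1.5 times with 10000 peaks. The 360 transcripts became 632 with relative log expression factors, 303 without the filter, 2132 with only the lung endothelial libraries and 8207 with DESeq2 on the 4 lung groups, of which 45.4% were higher at adult. Added after seeing the data, a fit without the retina input library of 11421 reads gave 693. Without 1 lung library 16 to 157 passed. With the replicate block, on the lung endothelial libraries only, 0 passed by edgeR, with 9631 at an unadjusted p under 0.05. Deviations of same-numbered adult and P6 endothelial libraries correlated at -0.0479, so the numbers do not pair these libraries. The cause of these changes was not tested. The RNA libraries held 8.86 to 17.7 M reads, and whether depth set these counts was not tested.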
